A study of Rattus norvegicus with 6 samples.

Results

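Tumor necrosis factor (TNF) is an inflammatory cytokine, and NF-kB is the family of transcription factors that carries much of its signal to the nucleus. The 10 genes described here include the ligand Tnf, its receptors Tnfrsf1a and Tnfrsf1b, and the inhibitors Tnfaip3 and Nfkbia. The others are the regulator Nfkbiz, the subunits Nfkb1, Nfkb2 and Relb, and the enzyme gene Ptgs2. They were taken by name from the 32883 genes of the count tables, and all 10 were present. Their levels were read in macrophages and 3 macrophage subsets, and in dendritic, T, NK, fibroblast, endothelial, acinar and islet cells of each rat.

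Cells came from the pancreas of 6 male Wistar rats, 2 in each of 3 groups, and were captured by droplet single-cell RNA sequencing. Young rats were the study's baseline group, 2 months old and killed before the diets were assigned, and the study names no diet for them. Old rats were controls kept on the normal diet up to 20 months of age. HFHF-old rats ate a diet high in fat and fructose from 2 until 20 months of age. Each pancreas was digested with collagenase and enriched for islets on a density gradient, so the cells are those that this isolation retained.

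In resting cells NF-kB dimers are held in the cytoplasm by IkB proteins, of which Nfkbia encodes the best known. When TNF binds its receptors, the IKK kinase complex marks IkB for destruction and dimers that contain the Nfkb1 product p50 enter the nucleus. A slower branch processes the Nfkb2 product and releases dimers with RelB. Several inhibitors are themselves NF-kB target genes and form feedback loops: Nfkbia captures the dimers again, and Tnfaip3 encodes A20, which edits ubiquitin on receptor complexes. Nfkbiz encodes a nuclear IkB protein that alters which targets respond. Ptgs2 encodes cyclooxygenase-2, which makes prostaglandin precursors.

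The promoters of 4 members are shown because they hold a match to the NF-kB consensus close to the start site. RefSeq held promoter sequence for 9 of the 10 members (not for Relb) in the GRCr8 rat assembly, a later build than the Rnor_6.0 build of the count tables. The NF-kB consensus, searched on both strands of the 250 bases before the start, matched in 4 of the 9 (44.4%) and in 2117 of 33469 rat promoters of that length (6.33%). Capitals mark the matches. Tnfaip3 (chr1:15543980-15544229, minus strand) held 3 matches between 170 and 55 bases before the start. Nfkb2 (chr1:255108124-255108373, plus strand) held 1 match 20 bases before it, Nfkbia (chr6:78597073-78597322, minus strand) 1 match 31 bases before it, and Nfkbiz (chr11:58251471-58251720, plus strand) 1 match 13 bases before it.
Tnfaip3: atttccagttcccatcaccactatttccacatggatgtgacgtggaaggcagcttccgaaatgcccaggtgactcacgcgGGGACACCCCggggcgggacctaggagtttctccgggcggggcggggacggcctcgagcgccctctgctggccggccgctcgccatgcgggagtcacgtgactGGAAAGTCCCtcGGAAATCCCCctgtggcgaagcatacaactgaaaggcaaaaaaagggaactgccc
Nfkb2: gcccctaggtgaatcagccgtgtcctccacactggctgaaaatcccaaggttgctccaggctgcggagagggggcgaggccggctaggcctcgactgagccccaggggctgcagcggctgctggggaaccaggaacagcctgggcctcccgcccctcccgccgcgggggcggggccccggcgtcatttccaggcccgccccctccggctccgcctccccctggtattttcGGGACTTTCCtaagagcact
Nfkbia: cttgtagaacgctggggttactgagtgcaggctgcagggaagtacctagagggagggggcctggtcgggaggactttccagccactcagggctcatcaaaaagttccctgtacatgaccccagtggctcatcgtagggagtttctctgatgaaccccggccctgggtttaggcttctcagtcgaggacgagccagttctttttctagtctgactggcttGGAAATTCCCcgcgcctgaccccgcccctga
Nfkbiz: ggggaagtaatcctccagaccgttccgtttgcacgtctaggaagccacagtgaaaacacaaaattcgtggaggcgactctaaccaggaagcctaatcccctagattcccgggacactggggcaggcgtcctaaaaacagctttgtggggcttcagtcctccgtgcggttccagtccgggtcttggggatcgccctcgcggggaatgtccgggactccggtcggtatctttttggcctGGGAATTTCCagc
No match was found in this window of Tnf, Tnfrsf1a, Tnfrsf1b, Nfkb1 or Ptgs2, which says only that these letters are not there.

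Of 78024 barcodes, 75201 cells were kept, between 7381 and 17443 per rat, from 77387928 to 166875258 unique molecular identifiers (UMIs, which count captured RNA molecules) per library. Levels are counts per 1000000 (CPM), the UMIs of a gene over all UMIs of a cell class in 1 rat, and the sums behind them held between 320901 and 76981158 UMIs. Enzyme and hormone RNA took 647473 to 757018 CPM of the acinar sums and 383264 to 615304 of the islet sums. This lowers the CPM of all other genes there, so the low ranks of these classes hold on this scale only. Ranks of classes are among the 8 main classes only, and some classes outside them are described at the end. Classes were named from marker genes, and their defining markers were highest in their own class for 10 of 10 macrophage, 8 of 10 dendritic, 9 of 10 T, 9 of 10 NK, 10 of 10 fibroblast, 9 of 9 endothelial, 13 of 13 acinar and 15 of 15 islet genes. The library of HFHF-old replicate 2 stood apart: 8130 of its 11716 cells were NK cells, and it held 9 macrophages and 7 islet cells, too few to use. HFHF-old macrophages and islet cells therefore come from replicate 1 alone, and their comparisons assume that this rat varied as those of the other groups did. No pair of libraries shared more than 64 cell barcodes. Over the 48 pairs of 8 members and 6 classes measured in all rats, young replicate 2 was the lowest rat in 27 and HFHF-old replicate 1 the highest in 28.

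Tnf, the ligand, was rare in every class. The 8 classes together yielded 628 Tnf UMIs from 55323 cells, of which 278 came from macrophages, 116 from dendritic cells and 110 from T cells. T cells had the highest mean level, 4.82 ± 2.85 CPM (SD, n = 6), with 4.95 and 1.22 in the young rats, 6.31 and 9.48 in the old rats and 3.26 and 3.68 in the HFHF-old rats. Dendritic cells followed at 4.17 ± 3.40 (SD, n = 6) and macrophages at 2.34 ± 1.71 (SD, n = 5), and each of these neighbours overlapped. The T cell mean was 2.62 with clustering at resolution 0.5, and dendritic cells were highest there and without old replicate 1. Both classes were larger at resolution 0.5, with 9325 T cells against 3066 and 4132 dendritic cells against 2264. The names thus did not cover the same cells there. In macrophages the young rats had 4.38 and 2.38 CPM of Tnf, the old rats 1.45 and 0, and HFHF-old replicate 1 had 3.49. The count of 0 in old replicate 2 allows a level of up to 0.534 CPM (3 counts, counting error only). The level of Tnf in T cells lay higher in the old rats than in both young rats and lower again in both HFHF-old rats, on 1 to 42 UMIs per rat.

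Tnfrsf1a encodes TNF receptor 1, which most cells carry. Endothelial cells had the highest level, 104 ± 13.9 CPM (SD, n = 6), and were above fibroblasts, at 82.0 ± 10.8, in 6 of 6 rats, although the ranges overlapped. Macrophages followed at 63.0 ± 2.68 (SD, n = 5), between 59.8 and 67.0 in the 5 rats, with no overlap with fibroblasts above or dendritic cells below. Dendritic, T and NK cells lay between 20.4 and 29.9 on average and overlapped. Islet cells (10.9 ± 1.56, n = 5) and acinar cells (9.01 ± 3.95, n = 6) were lowest as shares of all UMIs, most or much of which are enzyme and hormone RNA there. Its log2 fold changes stayed between -0.32 and 0.29 in the 8 classes in both comparisons.

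Tnfrsf1b encodes TNF receptor 2, found mainly on blood and endothelial cells, and its order of classes differed from that of Tnfrsf1a. NK cells had the highest mean, 200 ± 107 CPM (SD, n = 6), above T cells (146 ± 69.2) in 6 of 6 rats. Their values were 169 and 63.4 in the young rats, 185 and 138 in the old rats and 282 and 365 in the HFHF-old rats, so both HFHF-old rats stood above the other 4. Macrophages (121 ± 29.7, n = 5), dendritic cells (81.8 ± 34.2), endothelial cells (72.3 ± 34.6) and fibroblasts (45.0 ± 14.3) followed, each overlapping the next. Acinar cells (11.7 ± 4.54) lay below every fibroblast value, and islet cells were lowest at 4.54 ± 1.65 (SD, n = 5).

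Among the inhibitors and Nfkbiz, Tnfaip3 was highest in T cells, with 145 and 41.5 CPM in the young rats, 147 and 121 in the old rats and 370 and 278 in the HFHF-old rats. NK cells (113 ± 63.2), dendritic cells (107 ± 63.0) and macrophages (99.1 ± 55.7) overlapped one another, and endothelial cells and fibroblasts were lower at 39.4 ± 19.2 and 18.4 ± 9.41. Nfkbia and Nfkbiz were instead highest in endothelial cells, at 780 ± 159 and 335 ± 113 CPM (SD, n = 6). Nfkbia in endothelial cells was at 862 and 623 in the young rats, 742 and 1007 in the old rats and 858 and 591 in the HFHF-old rats, and the 3 groups overlapped. Macrophages were the second class for both genes, at 531 ± 170 and 305 ± 207 (SD, n = 5). All 3 genes were lowest in acinar and islet cells as shares of all UMIs, at means between 4.38 and 84.8.

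The subunit Nfkb1 was highest in lymphoid and dendritic cells. NK cells had 354 ± 97.3 CPM, T cells 337 ± 118 and dendritic cells 321 ± 64.4 (SD, n = 6 each), and these 3 overlapped. Endothelial cells, macrophages and fibroblasts lay between 152 and 210 on average, and every fibroblast value was above the islet values (32.5 ± 13.9, n = 5). Nfkb2 and Relb, the subunits of the slower branch, were both highest in dendritic cells, at 29.8 ± 5.13 and 69.7 ± 27.7 (SD, n = 6). Relb in dendritic cells ran from 26.7 in young replicate 2 to 108 in HFHF-old replicate 1, and its next 5 classes had means between 35.5 and 48.8 that overlapped throughout.

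Ptgs2 was found mainly in fibroblasts. Fibroblasts held 94.8 and 102 CPM in the young rats, 173 and 97.6 in the old rats and 360 and 286 in the HFHF-old rats, and were above endothelial cells in 6 of 6 rats. Endothelial values were uneven, with 23.1 and 1.04 in the young rats, 4.34 and 3.83 in the old rats and 33.3 and 119 in the HFHF-old rats. None of the 6 other classes reached 10 CPM in any rat, and the highest such value was 9.20, in acinar cells of HFHF-old replicate 1.

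**Figure D1:**
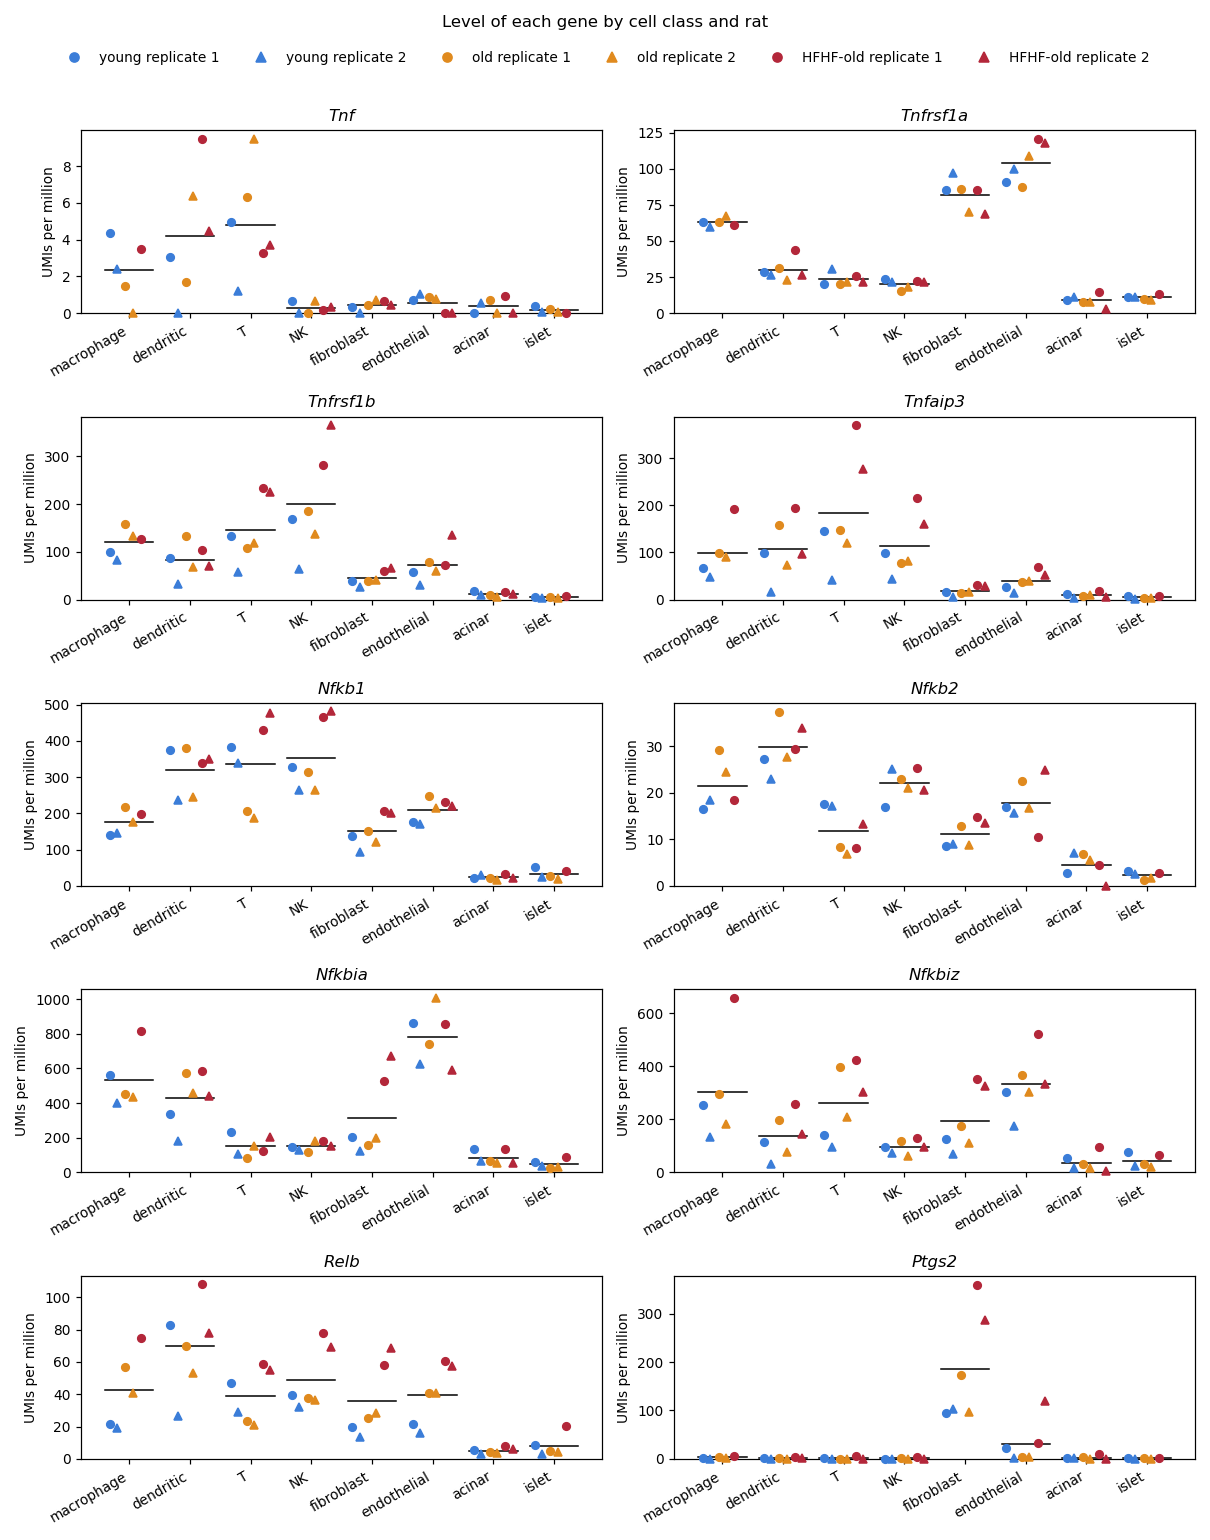
Level of each of the 10 genes, in CPM (vertical axes, starting at 0), in 8 cell classes (horizontal axes), with 1 point per rat, coloured by group. Ptgs2 points stand high in fibroblasts, Tnfrsf1a points lie close together within each class, and Tnf stays below 10 everywhere.

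The first comparison, old rats on a normal diet against young rats, addresses age. The study describes killing the baseline (young) rats at the start and the control rats after feeding. Any effect of the date of isolation therefore cannot be told apart from age. No member passed the edgeR quasi-likelihood test in any of the 8 classes (adjusted p by Benjamini-Hochberg under 0.05, with a change of over 1.5-fold either way). Of 80 pairs of member and class, 72 passed the filter on low counts and were tested. Among all 91832 pairs of gene and class, 0.0305% passed. At an unadjusted p under 0.05 stood 12 of the 72, with 9 higher and 3 lower in old rats, against 6.77% of all pairs, and DESeq2 called 3 (Relb and Tnfrsf1b in macrophages and Nfkbiz in T cells), with 0.568% of the 154455 pairs it was run on. With 2 rats a group an exact permutation test of 1 value cannot go below p = 0.333, so the evidence for single genes rests on the shared fit.

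Macrophages held 5 of those 12 pairs, led by Relb. It was at 21.4 and 19.3 CPM in the young rats, 56.7 and 41.0 in the old rats and 75.1 in HFHF-old replicate 1. Both old rats were thus above both young rats, and the HFHF-old rat was above all of them. The log2 fold change of old against young was 1.31 ± 0.18 (SE; edgeR, adjusted p = 0.0846). The adjusted p was 0.171 without young replicate 1, 0.0477 without young replicate 2, 0.120 without old replicate 1 and 0.0764 without old replicate 2.

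Tnfrsf1b in macrophages had 98.7 and 83.8 CPM in the young rats, 159 and 134 in the old rats and 127 in HFHF-old replicate 1. Both old rats were highest, with a log2 fold change of 0.74 ± 0.17 (SE; edgeR adjusted p = 0.188). Tnfaip3, Nfkb1 and Nfkb2 were the other members at an unadjusted p under 0.05, with log2 fold changes of 0.77, 0.52 and 0.67. In all, 7 of the 10 members were higher in both old than in both young rats and 1, Tnf, was lower, where 20.0% of the 12612 genes tested in macrophages were higher without overlap and 27.2% lower. The median log2 fold change was 0.59 over the members and -0.01 over all genes. Among the genes known to respond to tissue dissociation (Fos, Jun, Atf3 and the like), the summed level in macrophages was 12258 and 6817 in the young rats and 11210 and 11186 in the old rats, which overlapped. Gene by gene, 8 of 14 of them (57.1%) were higher in both old than in both young rats, with a median log2 fold change of 0.57, so they moved with the members. The 10 T markers in macrophages did too, at 187 and 212 CPM in the young rats and 333 and 271 in the old rats, as did the median mitochondrial share, 1.79% and 1.40% against 2.64% and 1.91%. The part of these in the member values was not tested.

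In T cells Nfkb1 was at 384 and 338 CPM in the young rats, 207 and 187 in the old rats and 431 and 477 in the HFHF-old rats, which makes the old rats the lowest pair. Its log2 fold change in old against young was -0.77 ± 0.21 (SE; edgeR, adjusted p = 0.228). Nfkb2 (-1.08 ± 0.39) and Relb (-0.71 ± 0.26) were also lower in both old than in both young rats, 3 of 9 members tested (33.3%), which is near the 27.0% of all genes tested in T cells that were lower without overlap. Nfkbiz in the same cells was at 141 and 97.7 CPM in the young rats and 398 and 210 in the old rats, with a log2 fold change of 1.44 ± 0.34 (SE; edgeR adjusted p = 0.157). The T cells of the young rats carried more NK marker RNA: the 10 NK markers summed to 2515 and 4367 CPM there, 1179 and 1436 in the old rats, and the 10 T markers to 2131 and 1522 against 3573 and 3778. The part of this difference in makeup in the T cell results was not tested.

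The difference between macrophages and T cells was tested directly for Relb, in a fit across macrophage, T, NK and fibroblast sums with the rat as a term. Relb rose in macrophages relative to T cells by 1.93 ± 0.27 on the log2 scale (SE; edgeR, adjusted p = 0.00734), the 1 call among 120 member tests of this kind, of which 32 had an unadjusted p under 0.05, against 7.12% of the tests of all genes. Of 14813 genes, 0.635% were called in this pair of classes. Its direction in old and young rats was the same without any single rat, with values between 1.53 and 2.15, but the call was lost without old replicate 1 (adjusted p = 0.126), old replicate 2 (0.0984), young replicate 1 (0.236) or young replicate 2 (0.0772). Nfkb1, Nfkb2 and Nfkbiz differed between the same classes by 1.20, 1.70 and -1.11, with adjusted p-values of 0.0591, 0.0721 and 0.0649, and did not pass.

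Endothelial cells gave the remaining pair among the 5 with the smallest p. Relb was at 21.7 and 16.1 CPM in the young rats, 40.8 and 40.6 in the old rats and 60.6 and 57.5 in the HFHF-old rats, with no overlap between neighbouring groups. The log2 fold change of old against young was 1.09 ± 0.28 (SE; edgeR, adjusted p = 1.000). The 10 T markers in endothelial cells summed to 81.1 and 79.9 CPM in the young rats and 466 and 253 in the old rats, with 9 of 10 higher in both old rats, and their part in this value was not tested.

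**Figure D2:**
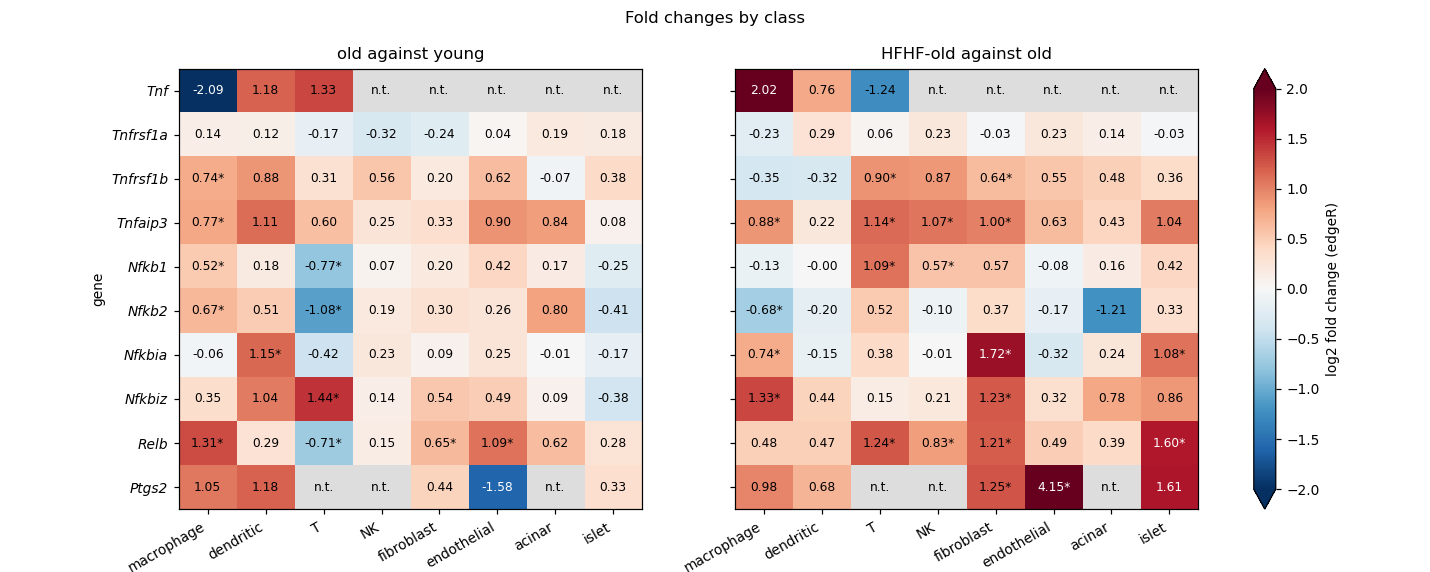
edgeR log2 fold change of each gene (rows) in each cell class (columns), old against young on the left and HFHF-old against old on the right, with red for higher and blue for lower, colours ending at 2 and -2. Asterisks mark an unadjusted p under 0.05, and n.t. pairs were too low to test. The largest red block is the fibroblast column on the right.

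The subsets of macrophages were named from lists of marker genes and not from their leading genes: Lyve1 and Fcna, which mark resident tissue macrophages, MHC class II genes, which present antigen, and Clec7a with Olr1, receptors for fungal glucans and oxidised lipoprotein. The Lyve1 Fcna subset joins 3 subclusters, of which 1 had 5 of 5 markers higher than the other macrophages by a log2 of at least 0.5 and each of the other two had 2 of 5. No member was called by edgeR in the 3 subsets in old against young, of 28 pairs tested, where 0.239% of all pairs of gene and subset were called. HFHF-old against old was also fitted in the subsets, but 1 HFHF-old rat held enough cells there, and the design gave no test to such a group, so the calls of that fit are set aside. They were 0 members and 4 other pathway pairs by edgeR, with 0.318% of all pairs, and 2 members by DESeq2 (Tnfaip3 and Nfkbiz in the MHC class II subset), with 0.521%. In old against young, 11 of the 28 stood at an unadjusted p under 0.05 (9 higher and 2 lower in old rats), against 11.1% of all pairs. For old against young DESeq2 called 2, Relb and Tnfaip3 in the Lyve1 Fcna subset, and 0.769% of all pairs it was run on.

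Relb in the Lyve1 Fcna subset had 15.3 and 14.4 CPM in the young rats, 55.7 and 36.9 in the old rats and 59.3 in HFHF-old replicate 1. The log2 fold change of old against young was 1.69 ± 0.23 (SE; edgeR, adjusted p = 0.0501). The MHC class II subset showed the same order, with 28.0 and 23.3, then 61.1 and 45.8, then 98.6, and a log2 fold change of 1.09 ± 0.22 (edgeR adjusted p = 0.115). The T markers were higher in both old than in both young rats in these subsets too, at 349 and 252 against 184 and 207 CPM in the first and 317 and 243 against 176 and 226 in the second, as were 8 of 14 and 7 of 14 dissociation genes, and their part was not tested. The Clec7a Olr1 subset did not: its young replicate 1, at 23.5, lay below the old rats, at 56.6 and 24.8, and its young replicate 2 lay above them, on between 32 and 90 cells a rat. In the MHC class II subset HFHF-old replicate 1 stood above the old rats for Tnfaip3, at 322 CPM against 130 and 92.2, and for Nfkbiz, at 808 against 292 and 201. These 2 genes and this subset are those of the DESeq2 calls set aside above. The order was not particular to it. In the Lyve1 Fcna subset Tnfaip3 was at 118 against 71.2 and 76.4, and Nfkbiz at 565 against 286 and 162. In the Clec7a Olr1 subset they were at 246 against 92.6 and 70.9, and at 776 against 314 and 135. All these HFHF-old values rest on that 1 rat. The dissociation genes in the MHC class II subset summed to 16266 in that rat and 10218 and 10458 in the old rats, so they moved with both genes, and their part was not tested. Cells of the rats also lay unevenly over the subclusters of the Lyve1 Fcna and MHC class II subsets, with the numbers given below beside Il1b. The part of this in the Relb, Tnfaip3 and Nfkbiz values was not tested.

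**Figure D3:**
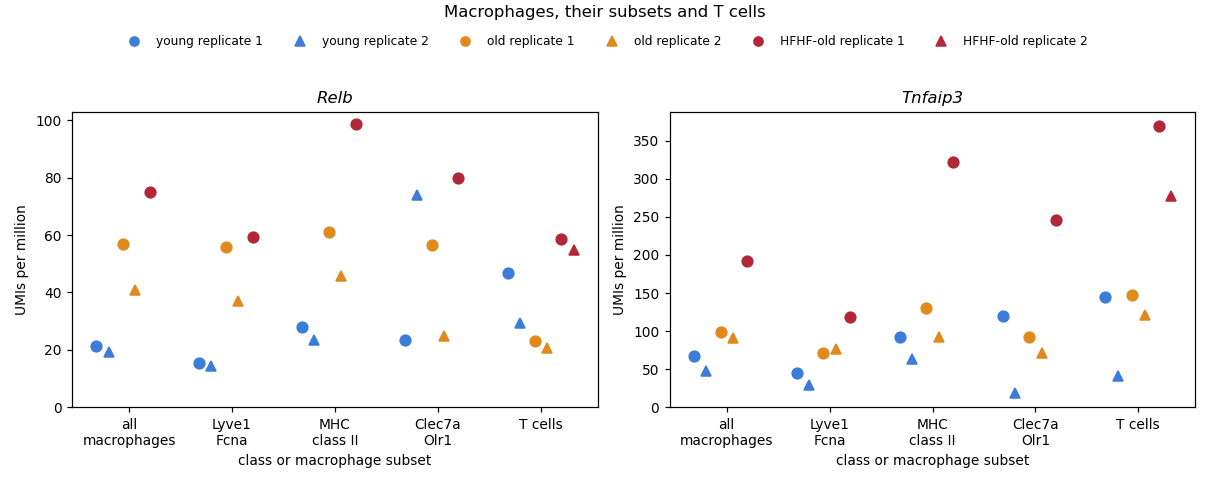
Relb (left) and Tnfaip3 (right) in CPM in all macrophages, 3 macrophage subsets and T cells, 1 point per rat. Old rats lie above young rats for Relb in all macrophages and in the Lyve1 Fcna and MHC class II subsets, and below them in T cells.

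The second comparison, HFHF-old against old, addresses the diet at the same age. Again no member passed the edgeR test in the 8 classes, of 72 pairs, where 0.0196% of all pairs of gene and class passed. At an unadjusted p under 0.05 stood 20 of the 72 pairs, 19 higher and 1 lower in HFHF-old rats, against 8.55% of all pairs. Of the 20, 4 in macrophages and 2 in islet cells rest on 1 HFHF-old rat, a fit that the design kept for the classes and not for the subsets. DESeq2 called 4, Nfkb1 in T cells and Relb, Nfkbia and Ptgs2 in fibroblasts, and 0.379% of all pairs it was run on. Both comparisons share the old rats, so low old values raise this contrast and lower the first.

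Fibroblasts held 6 of the 20 pairs, spread over the receptor Tnfrsf1b, the inhibitors Tnfaip3 and Nfkbia, the regulator Nfkbiz, Relb and Ptgs2. Nfkbia was at 207 and 126 CPM in the young rats, 161 and 196 in the old rats and 530 and 670 in the HFHF-old rats. The HFHF-old rats stood apart from the other 4, which overlapped. The log2 fold change of HFHF-old against old was 1.72 ± 0.33 (SE; edgeR, adjusted p = 0.432), and DESeq2 gave 1.72 with an adjusted p of 1.44e-04.

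Relb in fibroblasts had 19.5 and 13.4 CPM in the young rats, 25.3 and 28.1 in the old rats and 57.8 and 68.6 in the HFHF-old rats. The log2 fold change was 1.21 ± 0.24 (SE; edgeR, adjusted p = 0.432). Nfkbiz was at 126 and 67.6, then 175 and 111, then 351 and 326, a log2 fold change of 1.23 ± 0.36 (edgeR adjusted p = 0.597). Ptgs2, with the values given above, had a log2 fold change of 1.25 ± 0.32 (edgeR adjusted p = 0.515). Tnfaip3 had 14.5 and 14.9 in the old rats against 30.8 and 28.7 in the HFHF-old rats, a log2 fold change of 1.00 ± 0.36, and Tnfrsf1b 38.0 and 40.7 against 59.2 and 65.3, a log2 fold change of 0.64 ± 0.24.

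In all, 8 of the 9 members tested in fibroblasts were higher in both HFHF-old than in both old rats, where 18.4% of the 13731 genes tested were higher and 18.7% lower without overlap. Tnfrsf1a was the exception, at 85.8 and 69.8 in the old rats and 85.2 and 68.8 in the HFHF-old rats. The median log2 fold change was 1.00 over the members and 0.01 over all genes. All 4 members whose promoters are printed above were among the 8, as were 3 of the 4 tested members with no match.

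Several other quantities were compared beside the fibroblast values. The 16 dissociation genes summed to 19443 and 18408 CPM in the old rats and 19257 and 23567 in the HFHF-old rats, which overlapped, while the young rats had 13448 and 8374. Gene by gene, 6 of the 16 were higher in both HFHF-old than in both old rats, where 18.4% of all genes tested were. The 10 macrophage markers in fibroblasts summed to 1317 and 1282 in the old rats, 1715 in HFHF-old replicate 1 and 23.9 in HFHF-old replicate 2. Pancreatic enzyme and hormone RNA in fibroblasts was 11909 and 7206 in the old rats, 15016 in HFHF-old replicate 1 and 1672 in replicate 2. Fibroblast markers summed to 23978 and 19700 in the old rats and 26417 and 16272 in the HFHF-old rats. The 9 B cell markers summed to 2422 and 2350 in the old rats and 3645 and 3853 in the HFHF-old rats. Only 2 of these 9 were higher in both HFHF-old than in both old rats, so the sum moved with the members and most of the list did not. Median UMIs per fibroblast were 9127 and 3678 in the old rats against 13789 and 9326. The part of any of these quantities in the result was not tested.

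**Figure D4:**
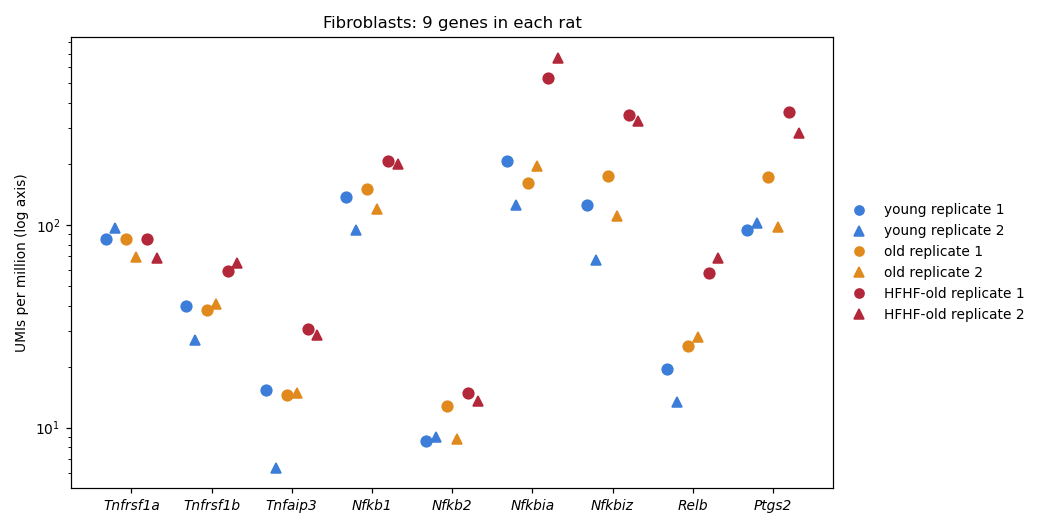
CPM (vertical log axis) of the 9 members tested in fibroblasts, 1 point per rat, coloured by group. The 2 HFHF-old points lie above both old points for every gene except Tnfrsf1a.

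The fibroblast class held 4 clusters, here named by their first 2 leading genes, and their mix differed between rats. In the cluster led by Tnfrsf11b and Gfpt2, Nfkbia was at 127 and 202 CPM in the old rats and 540 and 801 in the HFHF-old rats. In the cluster led by Mgp and Spon1 it was at 150 and 189 against 370 and 340, and in the cluster led by Pi16 and Clec3b at 132 and 150 against 421 and 637. The fourth cluster, led by Il6 and Sfrp1, had enough cells in HFHF-old replicate 1 only, where Nfkbia was at 727 against 366 and 353 in the old rats. HFHF-old values of Nfkbia were thus above old values inside each of the 4 clusters, on 1 HFHF-old rat in the Il6 cluster.

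Relb and Nfkbiz were likewise higher in both HFHF-old than in both old rats in each of the 3 clusters with cells from all rats. The share of all genes in that order was not counted inside the clusters. These genes were also looked at there because they differed in the whole class, so the order by cluster is a description only. In the Tnfrsf11b cluster Relb had 22.7 and 36.2 in the old rats and 58.7 and 76.6 in the HFHF-old rats. Ptgs2 behaved differently in the Mgp cluster, where the old rats had 117 and 138 and the HFHF-old rats 199 and 88.9. In the Tnfrsf11b cluster it had 257 and 78.6 in the old rats and 449 and 390 in the HFHF-old rats.

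**Figure D5:**
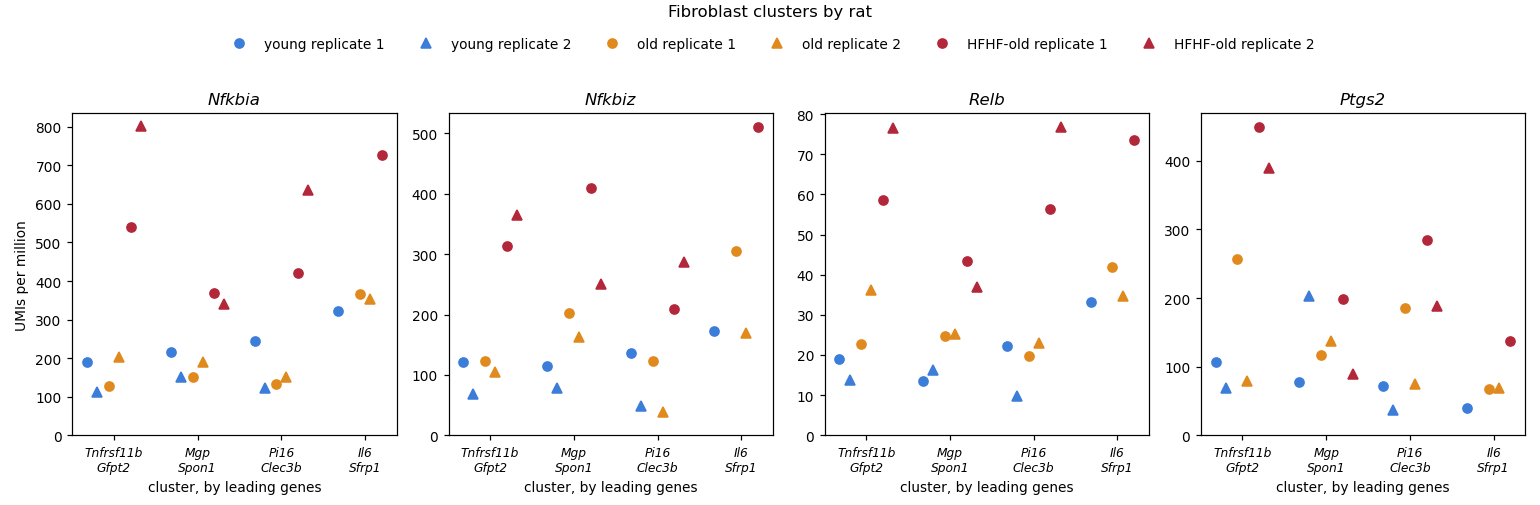
Levels of Nfkbia, Nfkbiz, Relb and Ptgs2 in the 4 fibroblast clusters (horizontal axes, by leading genes) in CPM (vertical axes, starting at 0), 1 point per rat with enough cells. For Nfkbia the HFHF-old points lie above the old points in each cluster.

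T cells held 4 of the 20 pairs, with Nfkb1, Relb, Tnfrsf1b and Tnfaip3. Nfkb1 had a log2 fold change of 1.09 ± 0.21 in HFHF-old against old (SE; edgeR, adjusted p = 0.378), and DESeq2 gave an adjusted p of 0.00163. Relb was at 46.7 and 29.3 CPM in the young rats, 23.2 and 20.7 in the old rats and 58.6 and 54.7 in the HFHF-old rats, a log2 fold change of 1.24 ± 0.25 (SE; edgeR, adjusted p = 0.378). For both genes the old rats were the lowest pair and the HFHF-old rats the highest.

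Tnfrsf1b and Tnfaip3 in T cells had log2 fold changes of 0.90 ± 0.34 and 1.14 ± 0.46. Counting Tnfrsf1a, 5 of 9 members were higher in both HFHF-old than in both old rats, where 31.4% of genes tested in T cells were, and Tnf was lower in both. The dissociation genes summed to 6684 and 3660 in the old rats and 9573 and 8014 in the HFHF-old rats, so they moved with this result. The 9 B cell markers did too, at 37.4 and 13.8 in the old rats and 158 and 47.2 in the HFHF-old rats, and the part of either in it was not tested. T cells of HFHF-old replicate 1 numbered 76 and those of young replicate 2 numbered 78.

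NK cells showed part of the same set. Relb was at 39.4 and 32.3 CPM in the young rats, 37.7 and 36.4 in the old rats and 77.7 and 69.1 in the HFHF-old rats, a log2 fold change of 0.83 ± 0.19 (SE; edgeR, adjusted p = 0.358). Tnfaip3 had 77.5 and 81.7 in the old rats and 215 and 161 in the HFHF-old rats, and Nfkb1 315 and 264 against 467 and 481. Both HFHF-old rats were above the other 4 rats for these 3 genes. In all, 5 of 8 members tested were higher in both HFHF-old than in both old rats, where 33.5% of genes tested in NK cells were.

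The NK cells of the HFHF-old rats were of different kinds: 815 cells of replicate 1 fell in the cluster led by Gzmbl3, Prf1 and Ccl5 and 7841 of replicate 2 in the cluster led by Slc27a2, Klrh1 and Cpne4. Within the Gzmbl3 cluster, which all rats filled, Relb had 37.8 and 28.0 in the old rats and 77.0 and 44.6 in the HFHF-old rats. The dissociation genes in NK cells summed to 5555 and 3705 in the old rats and 7791 and 5752 in the HFHF-old rats, and their part in the result was not tested. Nfkbia in NK cells stood at 119 and 179 against 182 and 155, a log2 fold change of -0.01, where fibroblasts had 1.72. The tested difference between these classes was -1.69 (edgeR adjusted p = 0.335), which did not pass.

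Dendritic cells did not show this: 1 of 10 members (Relb, 10.0%) was higher in both HFHF-old than in both old rats. Of all genes tested in dendritic cells 27.3% were, and no member there stood at an unadjusted p under 0.05. Endothelial cells had 4 of 9 members higher in both HFHF-old than in both old rats (Tnfrsf1a, Tnfaip3, Relb and Ptgs2), where 14.3% of genes tested there were. The dissociation genes summed to 16240 and 20146 in the old rats and 25103 and 20539 in the HFHF-old rats, with 6 of 14 (42.9%) higher in both, and their part was not tested. Ptgs2 there rested on 5 UMIs in each old rat, 22 and 91 in the HFHF-old rats and 67 and 2 in the young rats, and no fold is given on so low a count in the old rats. In macrophages and islet cells, where HFHF-old replicate 1 is the only HFHF-old rat, Nfkbiz stood at 658 CPM in macrophages against 297 and 182 in the old rats, and Relb at 20.2 in islet cells against 5.07 and 4.35. Nfkb2 in macrophages, at 18.4 against 29.1 and 24.4, was the 1 lower pair of the 20 (log2 fold change -0.68 ± 0.21, edgeR adjusted p = 0.301). In macrophages of that rat the dissociation genes summed to 14707 against 11210 and 11186 in the old rats. The median mitochondrial share was 3.13% against 2.64% and 1.91%, and the median UMIs per cell were 10490 against 6632 and 2346. In its islet cells these 3 measures were 4619 against 3409 and 2606, 3.28% against 2.35% and 1.91%, and 24321 against 12617 and 2750. The macrophage markers in its islet cells summed to 675 against 314 and 301. The part of all these in the macrophage and islet values was not tested. Acinar cells, with 59 cells from HFHF-old replicate 2, had no pair at an unadjusted p under 0.05. Levels of all members in acinar and islet cells were low as shares of all UMIs, which enzyme and hormone RNA lowers there. The 10 macrophage markers summed to between 0 and 2933 CPM in acinar cells and between 301 and 675 in islet cells, and the part of free RNA in these levels was not tested.

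The other genes of the pathway were counted from 4 lists with 72 genes: 26 that signal from the TNF receptors to the IKK complex, 6 other NF-kB subunits and IkB proteins, 9 other TNF family ligands and receptors and 31 target genes. No pair of gene and class was called by edgeR in the 8 classes, of 452 tested in each comparison. At an unadjusted p under 0.05 stood 59 in old against young (52 higher, 7 lower) and 78 in HFHF-old against old (58 higher, 20 lower), and DESeq2 called 14 and 10. These are 13.1% and 17.3% of the pairs, where 6.77% and 8.55% of all pairs of gene and class stood there. By list, the share at an unadjusted p under 0.05 in HFHF-old against old was 9.38% for the signalling genes, about that of all pairs, 22.2% for the subunits and IkB proteins, 11.1% for the ligands and receptors and 25.7% for the target genes. All 4 pairs of the ligand and receptor list were lower in HFHF-old rats, and all 10 of the subunit list were higher. In fibroblasts 13 of 25 target genes tested were higher in both HFHF-old than in both old rats (52.0%) and 3 were lower (12.0%), with a median log2 fold change of 0.66, beside the 18.4% and 18.7% of all genes.

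In the macrophage subsets edgeR called 2 pairs of these genes in old against young. Il1b, the gene of interleukin-1 beta, was higher in old than in young rats in 2 subsets. In the Lyve1 Fcna subset it was at 66.9 and 33.2 CPM in the young rats, 420 and 398 in the old rats and 16.8 in HFHF-old replicate 1, a log2 fold change of 3.06 ± 0.33 for old against young (SE; edgeR adjusted p = 0.0418). In the MHC class II subset it was at 107 and 67.0, then 401 and 455, then 202, a log2 fold change of 2.35 ± 0.28 (SE; edgeR adjusted p = 0.0349). The old rats were highest in both subsets. The direction was the same without any single rat, but in the Lyve1 Fcna subset the call was lost without old replicate 1 (adjusted p = 0.190), old replicate 2 (0.270) or young replicate 1 (0.472), and in the MHC class II subset without old replicate 1 (0.355) or old replicate 2 (0.397). The subclusters were filled unevenly: in the Lyve1 Fcna subset 1224 of the 1673 cells of HFHF-old replicate 1 lay in 1 of the 3, against 137 of 2464 and 36 of 614 in the young rats and 114 of 498 and 120 of 1007 in the old rats, and in the MHC class II subset 832 of its 930 cells lay in 1 of 2, against 803 of 1573 and 366 of 619 in the young rats and 178 of 265 and 262 of 550 in the old rats. The T markers and dissociation genes given above for these subsets moved with Il1b, and the part of any of these was not tested.

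The 4 pairs called by edgeR in the fit set aside above, which held 1 HFHF-old rat, belong to 3 genes, and are given here as values chosen by that call. Birc3, which encodes a ubiquitin ligase of the TNF receptor complex, had 41.5 and 28.9 CPM in the old rats and 150 in the HFHF-old rat in the MHC class II subset, and 25.7 and 21.3 against 129 in the Clec7a Olr1 subset. In the latter the adhesion molecule gene Icam1 had 159 and 103 against 700, and the chemokine gene Cxcl1 247 and 145 against 954. The HFHF-old rat was above both old rats in each. It also had the highest sum of dissociation genes in both subsets, 16266 in the MHC class II subset as given above and 15622 against 7925 and 5090 in the Clec7a Olr1 subset, and the part of those genes was not tested.

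Genes whose level followed that of a member most closely were sought over 75 sums of a rat and class from 14 classes, among 6813 genes, by Pearson correlation of log2(CPM + 10). These sums share libraries and depth, so the correlations are descriptions. Nfkb1 was closest to Tnip1 (0.95), which encodes a partner of A20, then Cdk19 and Rest (0.94 each). Tnfaip3 was closest to Adgre5 (0.93), Map3k8 (0.91) and Arhgap15 (0.90), and Tnfrsf1b to Rasa3 (0.94), Irak2 (0.90) and Zc3hav1 (0.90).

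Nfkbia was closest to Swap70 (0.83), Zc3h12a and Myo1e (0.81 each), and Nfkbiz to the early response gene Klf6 (0.90), Secisbp2l (0.87) and Ski (0.86). Relb was closest to March7 and Arf1 (0.88 each) and Kpna4 (0.87), and Nfkb2 to Nek6 (0.86), Tet3 (0.85) and Rin3 (0.84). Ptgs2 was closest to Bnc2 (0.92), Fbln2 (0.91) and C1s (0.90), Tnfrsf1a to F8 (0.91), Sec14l1 and Rnf41 (0.90 each), and Tnf to Zc3h12d and Glrx (0.66 each) and Cd200r1 (0.63). Among the members themselves the closest pairs were Tnfrsf1b with Tnfaip3 (0.87), Nfkb1 with Tnfaip3 (0.85) and Nfkb1 with Relb (0.82), while Ptgs2 was closest to Tnfrsf1a (0.58) and Tnf to Tnfaip3 (0.47).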

How the data were processed

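Pancreatic cells of 6 rats were profiled on the 10x Genomics Chromium platform (3' v3.1), 1 library per rat. The authors deposited, for each library, a matrix of whole-number UMI counts per gene and cell made with Cell Ranger (5.0.0 in the file headers) on the Rnor_6.0 build, with no normalization. The raw counts were used here as deposited.

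Cells with under 200 genes, over 25% mitochondrial UMIs or among the top 1% by genes were left out, after the study's methods. Counts scaled to 10000 per cell were log-transformed, and 2000 variable genes (members, pathway and mitochondrial genes held out) gave 10 principal components, 15 nearest neighbours and Leiden clusters (leidenalg 0.10.2, resolution 1). Clusters were named from marker genes, and macrophages were clustered again with each library centred, at resolution 0.5. Of the cells, 8113 (10.8%) were marked as possible doublets and kept in the main values. The macrophage subset names and the clusters shown within classes were chosen after the data were seen.

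UMIs were summed per rat and class with at least 10 cells, and tested with edgeR 4.0.16 (glmQLFit and glmQLFTest, TMM, filterByExpr, R 4.3.3) over all genes of a class, 3 groups in 1 fit. A call needed an adjusted p (Benjamini-Hochberg) under 0.05 and over 1.5-fold change. The study gives these limits for higher genes, and they were applied here in both directions. HFHF-old against old was fitted in macrophage subsets too, but with 1 HFHF-old rat there its calls were set aside after they had been seen, since the design gave such a group no test. Standard errors came from the fold change and its F statistic. Differences between classes used 1 fit with the rat and interactions of class and group. DESeq2 1.42.0, other scaling, no low count filter, a replicate block, other clustering, doublet removal, removal of enzyme and hormone genes and leaving out each rat were alternatives. Rats are the replicates, and the labels give no further batch. On simulated counts the HFHF-old against old test recovered 54.5% of genes changed by a log2 of 2 in fibroblasts (13471 genes) and 69.1% in T cells (9769 genes), and 1% and 8% of those changed by a log2 of 1.

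Every member was named in all classes. Fold changes with full statistics were given for the 5 pairs of member and class with the smallest unadjusted p per comparison, since fewer than 5 were called, and further values were chosen after they were seen. Other pathway genes were named where called, up to 8 per comparison, and the 3 genes most correlated with each member among those with a mean of at least 20 CPM (counts per 1000000). The members and all gene lists were chosen with earlier results of these data known. Matches to the NF-kB consensus were searched in RefSeq promoter sequence.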

Additional observations from a re-analysis of the deposited data

Results flagged for a closer look

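The change of Relb from young to old rats differed between macrophages and T cells by 1.93 on the log2 scale (edgeR, adjusted p = 0.00734 over 14813 genes). It stands here because the test of the difference itself passed. Fitted alone, the log2 fold change of old against young was 1.31 in macrophages and -0.71 in T cells, and both old rats lay above both young rats in the first class and below them in the second. The direction held in the 12 alternatives run, and the adjusted p passed in 8 of them. Leaving out any 1 of the 4 young and old rats ended the call, with values between 1.53 and 2.15 over all alternatives. NK marker RNA in T cells was higher in the young rats (2515 and 4367 against 1179 and 1436 CPM), and its part in the difference was not tested.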

How the results depend on the processing

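The 24 fold changes of members recomputed, 2 of Il1b and 1 difference between classes kept their direction under each alternative run. All of these were chosen by a small p, by a call or after their values were seen, and the alternatives reuse the same rats. A kept direction was therefore likely from the start and is not separate evidence. Counts of calls depended on the test. Without a filter on low counts, edgeR called 7 members in old against young and 15 in HFHF-old against old over the 8 classes (2.05% and 1.96% of all pairs of gene and class), 41 and 43 other pathway pairs, 5 members in macrophage subsets (old against young, as for all subset counts here) and 5 differences between classes. DESeq2 called 3 and 4 members, 14 and 10 other pathway pairs and 2 members in subsets. The newer quasi-likelihood method, added after the data were seen, called no member. Leaving out 1 rat gave 0 to 1 members in old against young (1, Relb in macrophages, without young replicate 2), 1 to 2 other pathway pairs there and 0 to 4 in HFHF-old against old (4 without young replicate 2), with 0.0477% to 0.236% and 0.0447% to 0.347% of all pairs called, 0 to 1 members in subsets and 0 to 6 differences between classes (6 without HFHF-old replicate 1, 5 without HFHF-old replicate 2, 0 without any 1 of the other 4 rats). Size factors by relative log expression gave 3 differences between classes, removal of enzyme and hormone genes 2, and clustering at resolution 0.5 gave 4, with 1 other pathway call in old against young. In subsets 1 member (Relb in the Lyve1 Fcna subset) was called without doublets and 1 without enzyme and hormone genes, and resolution 0.5 was not run there. The shares printed for these alternatives cover the 8 classes only. Counts in subsets and of differences between classes have no such share here, apart from DESeq2 in subsets above, so they are not set against all genes. The cause of these shifts was not tested.

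The replicate numbers were not taken as pairs: deviations of rats with the same number correlated between -0.13 and 0.308, although in NK cells (0.136 to 0.209) and dendritic cells (0.136 to 0.308) each pair of groups correlated positively. With the replicate block, 2 members were called in old against young (Relb in macrophages, edgeR adjusted p = 0.0408, and Nfkbiz in T cells, 0.0460). Other pathway pairs called were 3 there (0.221% of all pairs) and 2 in HFHF-old against old (0.0795%). The 2 members called in subsets were Relb in the Lyve1 Fcna subset (edgeR adjusted p = 0.0195) and in the MHC class II subset (0.0268), with no share over all genes given.

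Of the 8 classes, the highest was the same for all 10 members except that Tnf (dendritic for T cells) and Nfkb1 (T for NK cells) changed at resolution 0.5 and without old replicate 1. Classes at resolution 0.5 were not the same cells. The T class held 9325 cells there against 3066, and no cluster was named type 2 innate lymphoid. The dendritic class held 4132 against 2264, with Jchain, Igh-6 and Mzb1 among its leading genes. The limits are 2 rats a group, 1 HFHF-old rat for macrophages and islet cells, few Tnf UMIs, and classes rebuilt here from clusters.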

Other observations

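Classes outside the 8 also held the members. Type 2 innate lymphoid cells had Nfkb1 at 703 and 446 CPM in the young rats, 471 and 310 in the old rats and 653 and 1069 in the HFHF-old rats, a mean of 609. This mean was above the 354 of NK cells, the highest of the 8 classes. Tnfaip3 in type 2 innate lymphoid cells had a mean of 192, above the 184 of T cells. Nfkbia in these lymphoid cells was at 669 and 318, then 273 and 722, then 479 and 1129. The class named neutrophil had only 5 of 9 markers up, and its leading genes included Fcnb, S100a9, Mmp12, Clec7a and the MHC class II gene RT1-Bb. It had Nfkbiz at 294 and 190 in the young rats, 380 and 210 in the old rats and 583 and 697 in the HFHF-old rats, and Nfkbia at 384 and 255, then 447 and 379, then 796 and 711. For both genes the HFHF-old rats were the highest pair. The share of all genes in that order was not counted in this class. The class named mast joined 2 clusters, 1 of 855 cells with 9 of 9 mast markers up and 1 of 1470 cells with 7 of 9 up. The larger was led by Scd, Car3 and Thrsp, and the mix of the 2 differed between rats. Tnfaip3 in the joint class was at 202 and 80.5, then 88.4 and 65.6, then 189 and 177, with old rats below the HFHF-old rats. For this class too, the share of all genes in that order was not counted. The part of the mix in these values was not tested.

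Islet cells were also split by their highest hormone. Nfkbiz was at 15.5 and 9.92 CPM in insulin cells of the young rats, 9.38 and 9.34 in those of the old rats and 44.3 in HFHF-old replicate 1. In glucagon cells it was at 112 and 36.3, then 50.7 and 31.1, then 175, and was above the insulin cells in each of the 5 rats. The last value rests on 102 UMIs. Every other member except Ptgs2 (1.02 against 1.04) also had a higher mean in glucagon than in insulin cells, as Nfkb1 did at 42.3 against 20.1. Hormone RNA lowers the CPM of other genes, and its share was not compared between these cells. Relb in insulin cells had 3.38 and 2.65, then 2.62 and 2.69, then 15.5. No test was run on these values. In islet cells of HFHF-old replicate 1 the dissociation genes, macrophage markers and mitochondrial share were also above both old rats, as given above. The part of those in the hormone split was not tested.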
